A study of Rattus norvegicus with 6 samples.

Results

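The fibroblast growth factor (FGF) ligands, their receptors and the proteins that modify their signal were followed in the retinas of diabetic rats given Compound Danshen Dripping Pill (CDDP) and of untreated diabetic rats. The set was a list of 37 gene symbols, fixed by name: 22 FGF genes, 4 receptors, 1 receptor-like gene, 2 FGF binding proteins, 2 klotho cofactors, 3 FLRT genes and 3 Sprouty genes. A member was measured where a probe row of the array carried its symbol and no other, which held for 35 of the 37 genes, out of 18166 genes tested. Fgf18 and Klb were not analysed here. The 3 HCDDP arrays (high dose CDDP, 0.4 g/kg/d by gavage for 12 weeks; the labels say Danshen and give no dose) were compared with the 3 arrays of the diabetic group, whose rats received saline in its place. All rats were male SD rats that had been fed a high fat diet for 4 weeks and then injected with streptozotocin (30 mg/kg), so that both groups were diabetic and no array of a healthy retina was compared. Rats were 5 weeks old at the start, and every sample is labelled as 17 weeks old, which is less than that starting age and the stated periods of diet and treatment add up to. Whether each array came from a separate rat is not stated, so the p-values cover only the variation among these 6 RNA samples, part of which may be technical.

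FGF ligands are secreted signals that hold receptor tyrosine kinases together with heparan sulfate or, for the endocrine ligands, with klotho proteins. The bound receptor passes the signal through adaptors to the Ras-ERK cascade, whose target genes include the Sprouty inhibitors that dampen the same pathway. In the eye, FGF signals take part in the specification of the neural retina and in the growth of lens fibres, and Fgf2 is known as a survival factor of photoreceptors. The FGF homologous factors Fgf11 to Fgf14 share the fold of the ligands but act inside neurons, where they bind voltage-gated sodium channels.

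Values are log2 signals as the authors deposited them, and a log2 difference is the HCDDP mean minus the diabetic mean. The groups were compared with limma across all 18166 genes. A gene was called where it passed the threshold of the methods, that is with p below 0.05 before adjustment together with a change of over 1.5 fold, which is a log2 difference beyond 0.585. That threshold was passed by 3.2% of all genes (582), with 0.925% higher and 2.28% lower in the HCDDP group. The arrays numbered 3 stood apart from the others in both groups. Between percentiles 10 and 90 their signals spanned only 4.48 on the log2 scale in HCDDP array 3 and 4.45 in the diabetic one, against 4.92 to 5.19 in the other arrays. The main axis of variation over all genes (first principal component, 44.9% of the variance) set diabetic arrays 1 and 2 apart, at 43.6 and 28.2. HCDDP arrays 1 to 3 lay at −0.654, −5.91 and −34.6 on it, and diabetic array 3 at −30.6. A split of diabetic arrays 1 and 2 from the rest is thus not particular to single genes. Markers of photoreceptors had strong signals, with means at or above percentile 64.7 of all genes in all 11 measured genes. So had markers of other tissue, with means at percentiles 98.7 to 100 in lens (5 measured) and 87.4 to 99.7 in skeletal muscle (6 measured). Markers of corneal and scleral stroma lay at percentiles 59.3 to 99.9. The part of such tissue in the values of the members was not tested. Of the measured markers of the intestinal epithelium, 8 of 12 passed the threshold as lower in HCDDP retinas, as did 4 of 11 markers of corneal and scleral stroma. The study itself listed these 4 stromal genes (Kera, Fmod, Prelp and Chad) from the same arrays. It also listed the intestinal genes Fabp1, Fabp2, Si, Reg3b, Reg3g and Guca2a, so both counts are no independent evidence.

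Of the 35 measured members, 1 was higher (Fgf8) and 1 was lower (Flrt2) in the HCDDP group at the threshold. That is 5.71% of the members, against 3.2% of all genes, and a single gene moves this share by more than the gap between the shares. After adjustment over all genes none of the members passed, with adjusted p-values of 0.782 to 0.997 by limma. An adjusted p under 0.05 was found in 0.0055% of all genes (1 gene). Before adjustment 4 members had a p under 0.05 by limma and 3 by the methods' t-test. An unadjusted p under 0.05 by limma was found in 6.05% of all genes. No such share is given for the count of 3, and the share that follows asks for the fold change as well. The methods' t-test put 1.08% of all genes past the threshold. The median log2 difference of the members was 0.06, against −0.01 for all genes, and 21 members lay above 0 (48.4% of all genes did) and 14 below (51.6% of all genes). The groups did not overlap in 6 members, which were higher in 4 (Fgf3, Fgf8, Fgf19 and Fgf20) and lower in 2 (Fgf14 and Flrt2). Over all genes the groups did not overlap in 10.7%, with 6.43% higher and 4.3% lower.

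**Figure D1:**
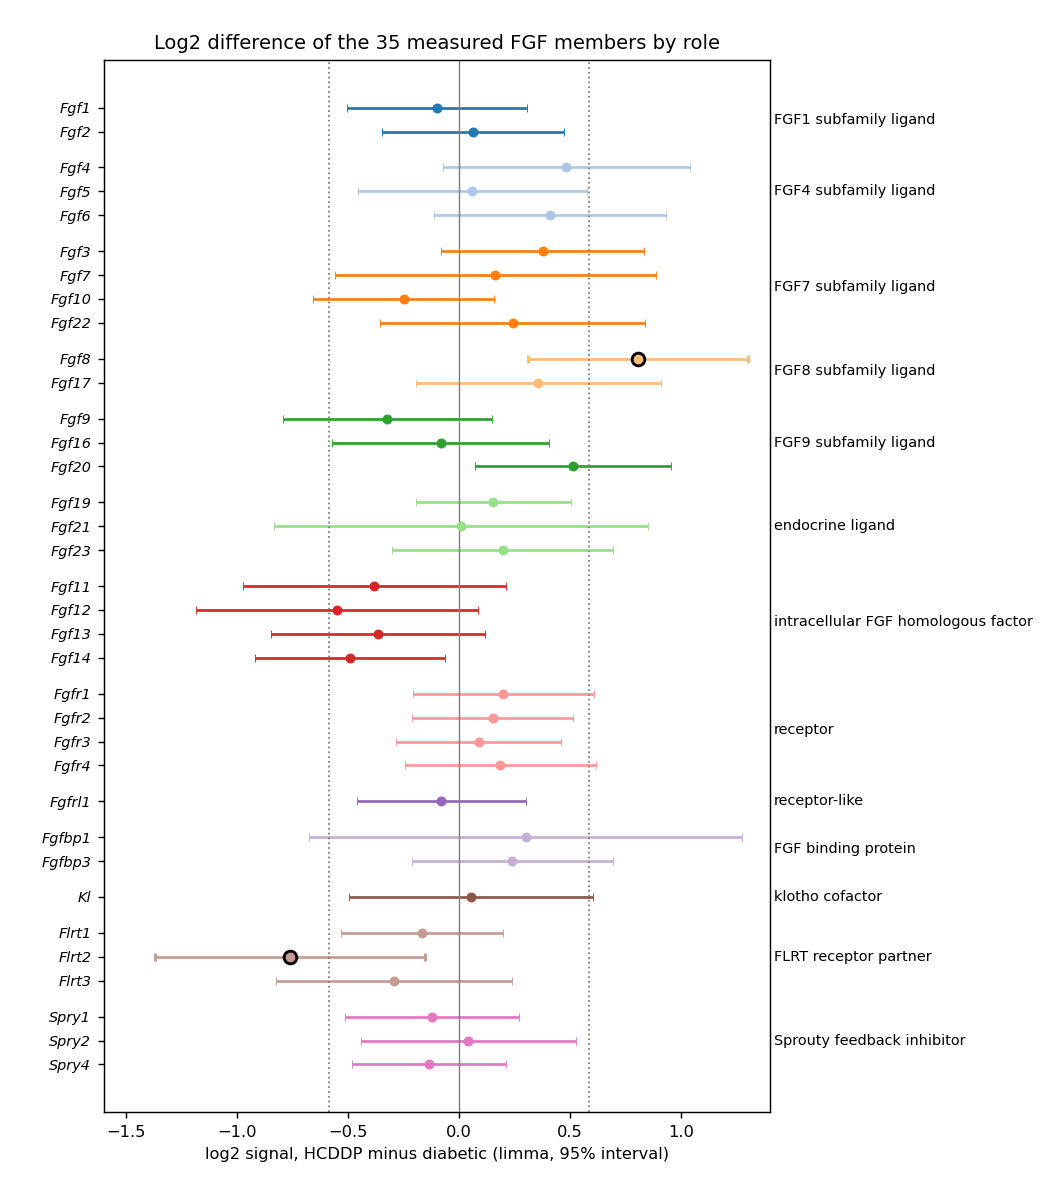
Log2 difference (HCDDP minus diabetic, x axis) of each measured member, grouped by role down the y axis. Points are limma estimates, bars are 95% intervals, dotted lines mark the fold change of 1.5, and black rings mark the 2 members past the threshold, Fgf8 and Flrt2.

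Fgf8, a ligand that patterns the embryonic brain and eye, was the only member that rose at the threshold. Its log2 signal was 4.77, 4.58 and 5.10 across HCDDP arrays 1 to 3, against 3.66, 4.12 and 4.24 across diabetic arrays 1 to 3. Every HCDDP array lay above every diabetic array, and the lowest HCDDP value was 4.58 against a highest diabetic value of 4.24. The signal averaged 4.82 ± 0.26 on the HCDDP arrays, against 4.01 ± 0.31 on the diabetic arrays (SD, n = 3 each). The difference on the log2 scale was 0.81 (standard error 0.22), a fold of 1.75 (unadjusted p = 0.00546, adjusted p = 0.782 by limma). Permuting the arrays exactly (20 assignments, two-sided) gave p = 0.10, the smallest value possible here. Fgf8 is among the genes that the study itself listed from these arrays, so its rise is no independent evidence. The signal was weak, with a mean at percentile 18.7 of all genes, and no detection call was given. Fgf17, the other measured ligand of its subfamily, read 5.66, 5.63 and 6.42 across HCDDP arrays 1 to 3, against 5.37, 5.52 and 5.75 across diabetic arrays 1 to 3. Its HCDDP array was the higher one in each same-numbered pair, but the groups overlapped and the log2 difference of 0.36 had an interval of −0.19 to 0.91.

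The sequences before the starts of both members past the threshold are shown because Fgf8 rose and Flrt2 fell. They are RefSeq promoter sequence of the GRCr8 build, the 250 bases before 1 annotated start of each gene, at chr1:254539606-254539855 on the minus strand for Fgf8 and at chr6:120509073-120509322 on the plus strand for Flrt2. The Flrt2 window lies inside the annotated span of the gene, which begins at chr6:120507998. Capitals mark matches on either strand to any of 6 motifs searched.
Fgf8: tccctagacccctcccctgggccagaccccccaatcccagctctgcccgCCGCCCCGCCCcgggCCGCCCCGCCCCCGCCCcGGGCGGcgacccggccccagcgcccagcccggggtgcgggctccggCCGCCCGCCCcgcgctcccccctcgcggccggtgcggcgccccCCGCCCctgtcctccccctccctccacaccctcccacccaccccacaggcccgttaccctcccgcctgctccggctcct
Flrt2: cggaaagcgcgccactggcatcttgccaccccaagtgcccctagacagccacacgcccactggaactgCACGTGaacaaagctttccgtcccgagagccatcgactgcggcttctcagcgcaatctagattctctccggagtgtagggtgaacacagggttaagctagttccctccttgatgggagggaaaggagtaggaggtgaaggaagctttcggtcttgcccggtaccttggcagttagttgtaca
The motifs were the TATA box TATAAA, the GC box GGGCGG, the cAMP response element TGACGTCA, the AP-1 site TGANTCA, the ETS site CCGGAAG and the E-box CACGTG, none of which contains another. The Fgf8 window held GC boxes alone, 9 matches in which some share bases, and had a GC content of 83.2%. The Flrt2 window held a single match, an E-box, with a GC content of 56.4%, while the median over 27457 promoters of the same length was 52.0%. A GC box was found in 32.4% of all those promoters and in 16 of the 29 measured members with a promoter entry. An E-box was found in 5.8% of all promoters and in 5 of the 29 member promoters (Fgf6, Fgf14, Fgf21, Fgfrl1 and Flrt2). A match describes the letters of the window and is no measured binding site.

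Fgf20, a ligand known as a survival factor of dopamine neurons, was the other secreted ligand with an unadjusted p under 0.05. Its log2 signal was 4.24, 4.62 and 4.80 across HCDDP arrays 1 to 3, against 4.05, 3.90 and 4.17 across diabetic arrays 1 to 3. The groups did not overlap, though HCDDP array 1 and diabetic array 3 lay close together. The log2 difference was 0.51 with a standard error of 0.19 (unadjusted p = 0.0278, adjusted p = 0.782 by limma), which is a fold of 1.43 and short of the threshold. It passed the threshold without HCDDP array 1, at 0.67, and stayed short of it without HCDDP array 3, at 0.39.

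**Figure D2:**
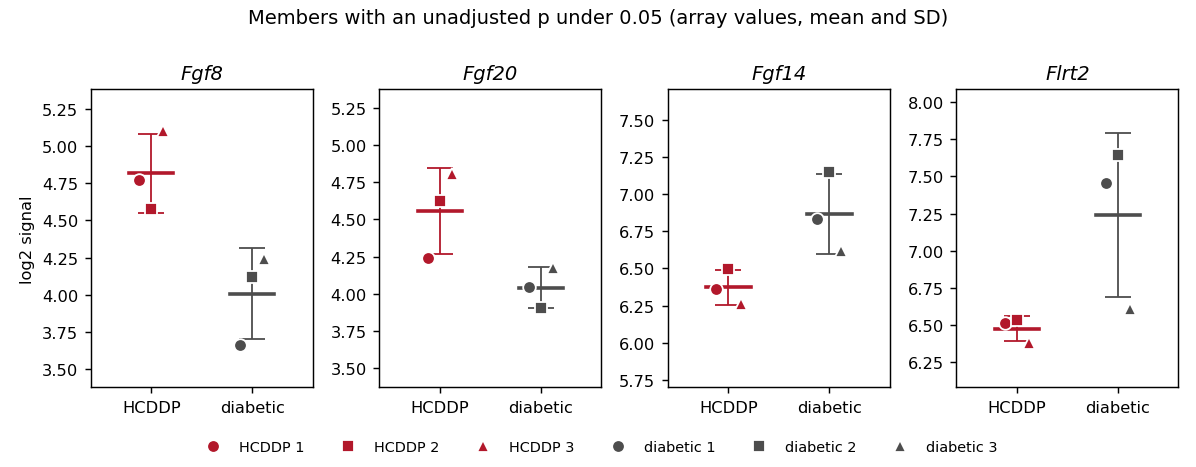
Log2 signal (y axis, with its own range in each panel) of the 4 members with an unadjusted p under 0.05 in the HCDDP and diabetic arrays. Symbols are single arrays, lines are means and bars are SD (n = 3); Fgf8 and Fgf20 lie higher and Fgf14 and Flrt2 lower in every HCDDP array.

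The secreted ligands mostly lay above 0. Of the 17 measured, 13 had a positive log2 difference and 4 a negative one, and the median was 0.16. The 3 ligands of the FGF4 subfamily, which are best known from early embryos, limb buds, hair follicles and muscle, all lay above 0, with Fgf4 at 0.48 (standard error 0.24), Fgf6 at 0.41 (standard error 0.23) and Fgf5 at 0.06 (standard error 0.23). Fgf4 read 6.04, 6.21 and 6.76 across HCDDP arrays 1 to 3, against 5.54, 5.86 and 6.16 across diabetic arrays 1 to 3, so that the groups overlapped across numbers but each HCDDP array exceeded its same-numbered diabetic array. Fgf4 and Fgf6 passed the threshold without HCDDP array 1, at 0.63 and 0.60, and Fgf4 without diabetic array 3, at 0.64. Without HCDDP array 3 both stayed short of it, with Fgf4 at 0.28 and Fgf6 at 0.31. In the FGF7 subfamily, whose ligands signal mainly from mesenchyme to epithelium, Fgf3 read 4.80, 4.72 and 5.19 across HCDDP arrays 1 to 3, against 4.27, 4.64 and 4.68 across diabetic arrays 1 to 3. The Fgf3 groups were apart by a narrow gap, and the log2 difference of 0.38 did not reach the threshold (unadjusted p = 0.0940, adjusted p = 0.782 by limma). Fgf22, a ligand of synapse formation, was at 0.24, Fgf7, the keratinocyte growth factor, at 0.16 and Fgf10, a ligand of branching organs, at −0.25.

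Fgf2 and Fgf1, ligands known from the adult retina, did not pass the threshold, nor did Fgf9 and Fgf16. Fgf2 read 6.29, 6.03 and 6.20 across HCDDP arrays 1 to 3, against 6.21, 6.25 and 5.85 across diabetic arrays 1 to 3, and the groups overlapped. Its log2 difference was 0.06, with an interval of −0.34 to 0.47. Fgf1, the other ligand of that subfamily, averaged 7.46 ± 0.11 on the HCDDP arrays, against 7.55 ± 0.23 on the diabetic arrays (SD, n = 3 each), a log2 difference of −0.10 with an interval of −0.50 to 0.31. Fgf9, a ligand of the developing retina, read 6.22, 6.41 and 6.12 across HCDDP arrays 1 to 3, against 6.68, 6.84 and 6.20 across diabetic arrays 1 to 3. Same-numbered pairs had the lower value on the HCDDP side each time, and its log2 difference of −0.32 was the lowest of the secreted ligands, with an interval of −0.79 to 0.15. Fgf16, of the Fgf9 subfamily, was at −0.08.

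The endocrine ligands, hormones of bile acid, energy and phosphate balance, showed no called difference. Fgf19, the gene that is named Fgf15 in mice, read 5.57, 5.50 and 5.72 across HCDDP arrays 1 to 3, against 5.47, 5.43 and 5.42 across diabetic arrays 1 to 3. The groups were apart, but the log2 difference was 0.15, a fold of 1.11 (unadjusted p = 0.338, adjusted p = 0.839 by limma). Fgf23 was at 0.20 with an interval of −0.30 to 0.69. Fgf21 had the widest spread among these 3 ligands, with 3.55 to 4.37 in the HCDDP arrays and 3.25 to 4.72 in the diabetic arrays, and in both groups array 1 was lowest and array 3 highest.

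Some members lie next to each other in RefSeq's gene order (GRCr8). Fgf3, Fgf4 and Fgf19 follow each other on chromosome 1 with 0 coding genes between them, and their log2 differences were 0.38, 0.48 and 0.15. Fgf6 and Fgf23 are neighbours on chromosome 4 with 0 coding genes between, at 0.41 and 0.20. Each of these 5 genes had the higher signal in the HCDDP array of all 3 same-numbered pairs. That held for 11 of the 35 members (31.4%) and for 17.6% of all genes, while HCDDP was lower in all 3 pairs for 8 members (22.9%) and for 20% of all genes. Members a little further apart did not rise together. Fgf2 and Spry1, with 2 coding genes between them on chromosome 2, were at 0.06 and −0.12. Spry4 and Fgf1, with 1 coding gene between them on chromosome 18, were at −0.13 and −0.10.

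Many secreted ligands had weak signals, and weak genes in general lay higher in the HCDDP group more often than strong ones. Among the 6055 genes with the weakest signals, 57.6% had a log2 difference above 0, with a median of 0.05. Among the 6056 genes with the strongest signals, 39.6% did, with a median of −0.07. Of the members, 9 lay in the weakest group, 7 of them above 0 with a median of 0.20, and 6 lay in the strongest group, 2 of them above 0 with a median of −0.09. After quantile normalization, which gives every array the same distribution of signals, Fgf8 was at 0.76 and Fgf20 at 0.46. Whether that normalization removed the dependence on signal was not examined, and the part of this dependence in the values of the ligands was not tested.

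**Figure D3:**
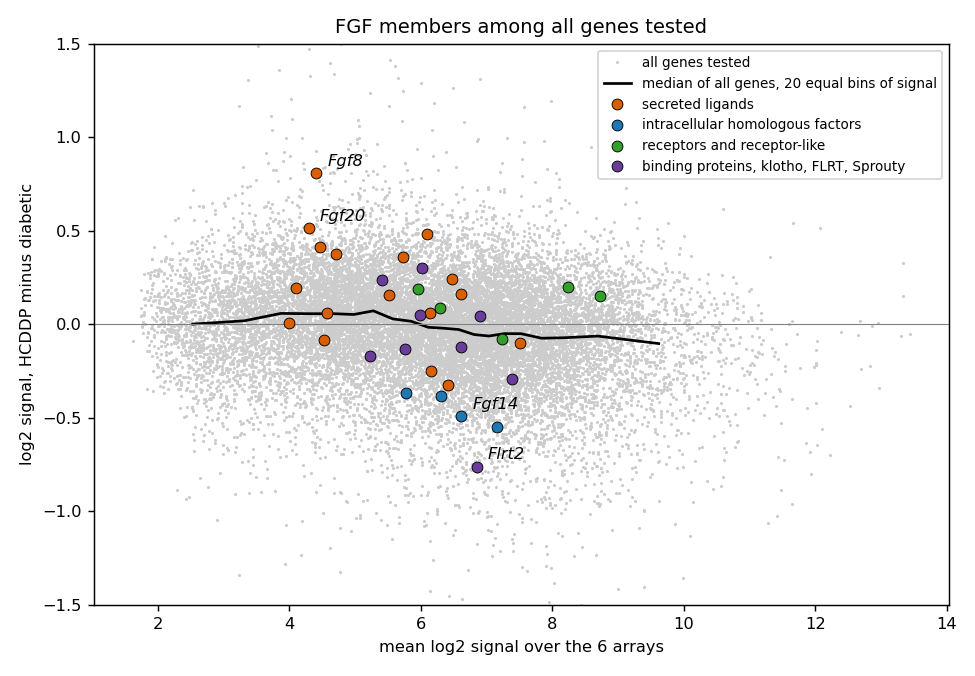
Log2 difference (HCDDP minus diabetic, y axis) against the mean log2 signal over the 6 arrays (x axis) for all 18166 genes (grey) and the 35 members (coloured by role). The black line is the median of all genes in 20 equal bins of signal; secreted ligands such as Fgf8 and Fgf20 lie above it at weak signals, the 4 homologous factors lie below it, and 28 genes lie outside the plotted range.

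All 4 FGF homologous factors had a lower mean in the HCDDP group, with log2 differences of −0.36 to −0.55 and a median of −0.44, and none was called. Fgf14, which sets the sodium current at the start of the axon, read 6.36, 6.49 and 6.26 across HCDDP arrays 1 to 3, against 6.83, 7.15 and 6.62 across diabetic arrays 1 to 3. The groups did not overlap, and the log2 difference was −0.49 with a standard error of 0.19, short of the fold change that the threshold asks (unadjusted p = 0.0288, adjusted p = 0.782 by limma). Fgf12 read 6.66, 7.27 and 6.73 across HCDDP arrays 1 to 3, against 7.44, 7.92 and 6.94 across diabetic arrays 1 to 3. Its log2 difference of −0.55 was the largest of these genes, but diabetic array 3 lay below HCDDP array 2 and the interval ran from −1.18 to 0.09. Within the same-numbered pairs Fgf12 was lower on the HCDDP side each time, with log2 differences of −0.779, −0.655 and −0.212, and with the replicate number as a block its standard error was 0.16 (unadjusted p = 0.0144, adjusted p = 0.313 by limma), still short of the fold change. The pairing was inferred from these same arrays and is not stated by the sources. Fgf13 averaged 5.59 ± 0.27 on the HCDDP arrays, against 5.96 ± 0.27 on the diabetic arrays (SD, n = 3 each), a log2 difference of −0.36. Fgf11 read 5.87, 6.25 and 6.25 across HCDDP arrays 1 to 3, against 6.80, 6.77 and 5.94 across diabetic arrays 1 to 3, so that the difference of −0.38 came from diabetic arrays 1 and 2 and turned to a higher HCDDP value in the pair numbered 3.

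In a fit added after seeing the data, which left out array 3 of both groups, Fgf11 was at −0.73 and Fgf12 at −0.72, both past the threshold (unadjusted p = 0.00896 and 0.0395 by limma), while Fgf14 at −0.56 and Fgf13 at −0.43 stayed short of the fold change. Fgf12 also passed it without HCDDP array 2, at −0.74. Without diabetic array 3 alone, Fgf11, Fgf12 and Fgf14 passed it, at −0.66, −0.80 and −0.62. Without HCDDP array 1 alone these 3 genes stayed short of it, at −0.26, −0.44 and −0.49. Markers of most retinal cell classes lay lower beside these genes, as did most lists of other tissues. Negative log2 differences were found in 9 of 11 markers of photoreceptors (median −0.34), 7 of 9 of Müller glia (median −0.33), 6 of 7 of bipolar cells (median −0.29) and 9 of 10 of the pigment epithelium (median −0.23). Of other tissues, 11 of 12 intestinal, 9 of 10 liver, 9 of 11 stromal, 4 of 5 lens and 7 of 10 leukocyte markers were negative. Skeletal muscle had 3 of 6 negative, and endothelium with pericytes 3 of 8. Of all genes 51.6% lay below 0, and of the 6056 genes with the strongest signals 39.6% lay above 0. All 12 measured markers of ganglion and amacrine cells had a negative log2 difference, with a median of −0.20 and 0 past the threshold, and their mean signal was 7.60 to 7.79 in the HCDDP arrays and 7.66 to 8.03 in the diabetic arrays. The 4 homologous factors averaged 6.09, 6.48 and 6.17 across HCDDP arrays 1 to 3, against 6.78, 7.01 and 6.29 across diabetic arrays 1 to 3, and for both lists diabetic arrays 1 and 2 were the highest of the 6. The same held for the mean signals of photoreceptor, Müller glia, bipolar, pigment epithelium and intestinal markers. It did not hold for lens, stromal, skeletal muscle, liver, endothelial or leukocyte markers. The part of these markers in the result was not tested, and fewer cells of a type and less RNA per cell cannot be told apart in RNA of a whole tissue sample.

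**Figure D4:**
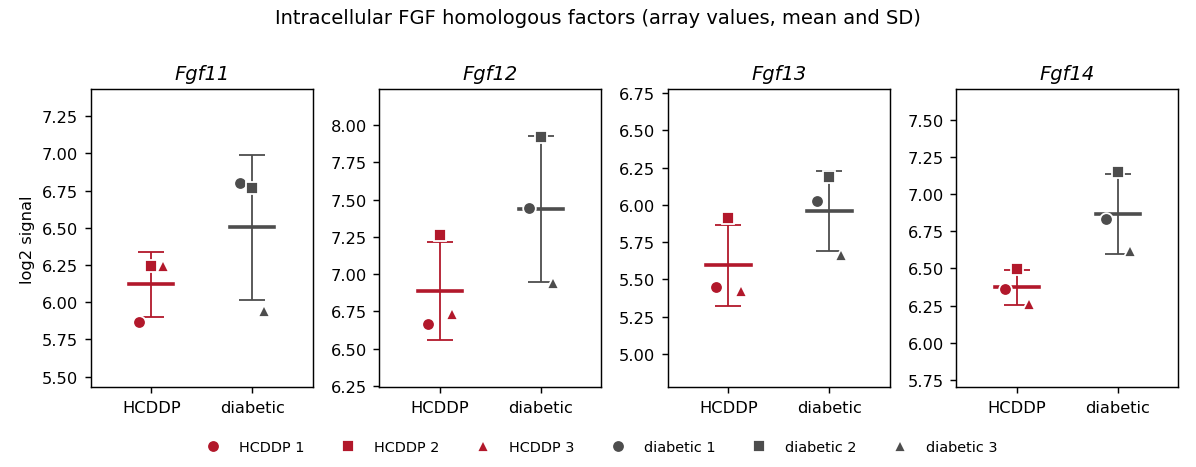
Log2 signal (y axis, with its own range in each panel) of the 4 FGF homologous factors in the HCDDP and diabetic arrays. Symbols are single arrays, lines are means and bars are SD (n = 3); diabetic arrays 1 and 2 are the highest in Fgf11, Fgf12, Fgf13 and Fgf14, and the groups are apart in Fgf14 alone.

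The 4 receptors all lay slightly above 0 and none was called. Their log2 differences ran from 0.09 for Fgfr3 to 0.20 for Fgfr1, with adjusted p-values of 0.825 to 0.918 by limma. Fgfr1, a receptor of Fgf2, read 8.51, 8.31 and 8.19 across HCDDP arrays 1 to 3, against 8.20, 7.91 and 8.30 across diabetic arrays 1 to 3, with an interval of the difference from −0.21 to 0.61. Fgfr2, the receptor of the FGF7 subfamily in its epithelial isoform, read 8.95, 8.80 and 8.64 across HCDDP arrays 1 to 3, against 8.64, 8.64 and 8.66 across diabetic arrays 1 to 3. HCDDP array 3 and diabetic arrays 1 and 2 held the same value for Fgfr2, 8.63613, and the cause of this tie was not tested. The SD of 0.01 in the diabetic group may therefore understate the spread between samples. Exact ties were also found in Fgf11 (6.24677 in HCDDP arrays 2 and 3) and in Kl (5.90344 in HCDDP array 2 and diabetic array 2). The interval of the Fgfr2 difference ran from −0.21 to 0.52. Fgfr3, a receptor that restrains growth in cartilage, averaged 6.33 ± 0.15 on the HCDDP arrays, against 6.24 ± 0.10 on the diabetic arrays (SD, n = 3 each). Fgfr4, which serves the bile acid hormone in liver, averaged 6.05 ± 0.15 on the HCDDP arrays, against 5.86 ± 0.25 on the diabetic arrays (SD, n = 3 each). Fgfrl1, which lacks the kinase domain, was at −0.08 with an interval of −0.46 to 0.30. For Fgfr2, Fgfr3 and Fgfrl1 the intervals do not reach a fold of 1.5 in either direction.

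None of the binding proteins or klotho cofactors measured was called, and in Fgfbp1 and Kl the spread between arrays exceeded the difference. Fgfbp1, which releases FGFs from the matrix, read 7.13, 5.82 and 5.58 across HCDDP arrays 1 to 3, against 6.52, 5.54 and 5.56 across diabetic arrays 1 to 3. Array 1 was the highest in both groups, and the SD of 0.83 in the HCDDP group and 0.56 in the diabetic group left a log2 difference of 0.30 with an interval of −0.68 to 1.28. Kl, which encodes the cofactor of Fgf23, read 6.32, 5.90 and 5.83 across HCDDP arrays 1 to 3, against 6.39, 5.90 and 5.60 across diabetic arrays 1 to 3, again highest in the arrays numbered 1. Its log2 difference was 0.05. Fgfbp3 was at 0.24 with an interval of −0.21 to 0.69, and its highest value was 5.89 in HCDDP array 2.

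Flrt2 fell in the HCDDP group at the threshold. It encodes a membrane protein that binds FGF receptors as well as the adhesion and guidance partners Unc5 and latrophilin. Its log2 signal was 6.52, 6.53 and 6.38 across HCDDP arrays 1 to 3, against 7.45, 7.65 and 6.61 across diabetic arrays 1 to 3. The groups did not overlap, but diabetic array 3 lay nearer to the HCDDP arrays than to the other diabetic arrays. The signal averaged 6.48 ± 0.08 on the HCDDP arrays, against 7.24 ± 0.55 on the diabetic arrays (SD, n = 3 each), which is −0.76 on the log2 scale (standard error 0.27), a fold of 1.69 (unadjusted p = 0.0203, adjusted p = 0.782 by limma). The exact two-sided permutation test gave p = 0.10, the smallest it can give. The call was lost with the methods' t-test (unadjusted p = 0.0772, exact two-sided permutation p = 0.10) and without HCDDP array 3, diabetic array 1 or diabetic array 2, at −0.71, −0.65 and −0.56, while without diabetic array 3 the difference was −1.07. Of the 11 stromal markers of cornea and sclera, 9 had a lower mean and 2 a higher one (Col1a1 at 0.12 and Col3a1 at 0.45). The median of the list was −0.45. Its mean signal was 9.62, 9.56 and 9.27 across HCDDP arrays 1 to 3, against 9.83, 9.94 and 9.94 across diabetic arrays 1 to 3. Single markers of the list differed in the place of diabetic array 3, which was the lowest diabetic array for Flrt2. Across diabetic arrays 1 to 3, Prelp read 9.75, 9.81 and 9.63, and Col1a2 read 10.60, 10.29 and 11.02. The part of these markers in the fall of Flrt2 was not tested. Flrt3 read 7.34, 7.40 and 7.005 across HCDDP arrays 1 to 3, against 7.65, 7.88 and 7.10 across diabetic arrays 1 to 3, with the HCDDP array lower in each pair and a log2 difference of −0.29 (interval −0.83 to 0.24). Flrt1 was at −0.17 (interval −0.53 to 0.20).

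The Sprouty genes, feedback inhibitors that FGF signalling itself induces, did not differ at the threshold. Spry1 averaged 6.55 ± 0.19 on the HCDDP arrays, against 6.67 ± 0.12 on the diabetic arrays (SD, n = 3 each). Spry2 read 6.84, 6.98 and 6.97 across HCDDP arrays 1 to 3, against 6.99, 7.20 and 6.47 across diabetic arrays 1 to 3, with the diabetic arrays on both sides of the HCDDP arrays. Spry4 averaged 5.69 ± 0.07 on the HCDDP arrays, against 5.83 ± 0.08 on the diabetic arrays (SD, n = 3 each). The log2 differences were −0.12 for Spry1, 0.04 for Spry2 and −0.13 for Spry4. Their intervals stayed inside a fold of 1.5 in either direction, the widest being −0.51 to 0.27 for Spry1 and −0.44 to 0.53 for Spry2.

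Of the other genes of FGF signalling, 65 of 72 listed were measured, of which 0 were higher and 3 were lower at the threshold, against 0.925% and 2.28% of all genes. By limma none passed an adjusted p, 3 had an unadjusted p under 0.05, and by the methods' t-test 1 was past the threshold. All 3 were target or feedback genes of ERK, a list of 20 measured genes with a median log2 difference of −0.09. Etv1, an ETS factor induced by FGF signals, read 6.43, 6.46 and 6.10 across HCDDP arrays 1 to 3, against 7.30, 7.57 and 6.91 across diabetic arrays 1 to 3. Its groups did not overlap, and the log2 difference was −0.93 with a standard error of 0.21, a fold of 1.90 (unadjusted p = 0.00214, adjusted p = 0.782 by limma). Egr1, an immediate early factor, read 8.90, 8.65 and 8.13 across HCDDP arrays 1 to 3, against 10.15, 9.61 and 8.61 across diabetic arrays 1 to 3. The Egr1 groups overlapped, since diabetic array 3 lay below HCDDP arrays 1 and 2, and the difference of −0.90 lost its call with the methods' t-test (unadjusted p = 0.151, exact two-sided permutation p = 0.30). Errfi1, an inhibitor of the EGF receptor, averaged 8.80 ± 0.50 on the HCDDP arrays, against 9.63 ± 0.33 on the diabetic arrays (SD, n = 3 each), and its difference of −0.83 also lost its call with that test (unadjusted p = 0.0761, exact two-sided permutation p = 0.20). Egr1 also lost its call over all probe rows (unadjusted p = 0.0585 by limma) and without diabetic array 1, where it was at −0.55. Without HCDDP array 2 or 3 or diabetic array 2, Etv1 alone of the 3 kept its call, at −0.99, −0.81 and −0.77.

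Other ERK target genes of the list were not called, among them 3 that were named after their values were seen, Dusp6, Etv4 and Etv5. Dusp6, an ERK phosphatase, read 6.98, 7.06 and 7.08 across HCDDP arrays 1 to 3, against 7.44, 7.08 and 6.99 across diabetic arrays 1 to 3, a log2 difference of −0.13 with an interval that overlapped 0 (unadjusted p = 0.473, adjusted p = 0.882 by limma). Etv4 was at 0.31 (standard error 0.20) and Etv5 at −0.14 (standard error 0.24). Phlda1, the next gene of the list by p, was at −0.39 (standard error 0.21).

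Among the receptor adaptors and the Ras-ERK cascade, 17 genes were measured and 0 were called in either direction. The smallest p-values were those of Map2k1, the kinase that activates ERK, at 0.39 (standard error 0.18), the phosphatase gene Ptpn11 at 0.28 (standard error 0.16), Plcg1 at 0.30 (standard error 0.17) and Frs2, the docking protein of FGF receptors, at −0.40 (standard error 0.24). Map2k1 read 8.37, 8.41 and 8.41 across HCDDP arrays 1 to 3, against 7.82, 7.89 and 8.32 across diabetic arrays 1 to 3, so that the groups were apart while diabetic array 3 lay near the HCDDP arrays. Among the heparan sulfate genes, 28 were measured and 0 were called, with a median of −0.06. Extl3, a glycosyltransferase that starts the heparan sulfate chain, read 6.77, 7.03 and 6.74 across HCDDP arrays 1 to 3, against 8.42, 8.97 and 6.17 across diabetic arrays 1 to 3. Diabetic arrays 1 and 2 stood far above the other 4 arrays, and the log2 difference had an interval of −2.41 to 0.40 (unadjusted p = 0.140, adjusted p = 0.784 by limma). Without diabetic array 3, Extl3 was at −1.85 and passed the threshold, as Sdc3 did at −0.61 and Phlda1 at −0.61. The heparan sulfate proteoglycans Gpc6 at −0.30, Sdc3 at −0.38 and Sdc2 at −0.34 had slightly smaller p-values than Extl3 and were not called.

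**Figure D5:**
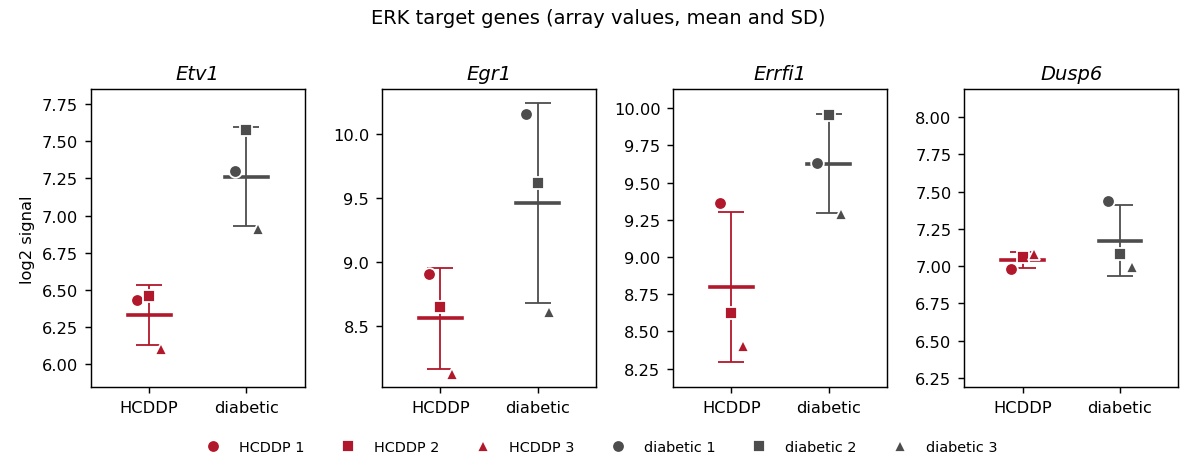
Log2 signal (y axis, with its own range in each panel) of 4 ERK target genes in the HCDDP and diabetic arrays. Symbols are single arrays, lines are means and bars are SD (n = 3); Etv1 is lower in every HCDDP array, Egr1 and Errfi1 are lower on average with overlapping arrays, and Dusp6 overlaps.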

How the data were processed

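Retinal RNA of 6 samples, 3 in the HCDDP group and 3 in the diabetic group, was hybridized to Affymetrix Rat Gene ST arrays. Groups and replicate numbers came from the sample titles, and dose and diet from the methods of the study. Using Expression Console Software 1.41, the authors obtained the log2 signals that they deposited, a value for each of 36685 probe rows on each array. The sources used here do not give the method of background correction or summarisation. Rows annotated to a single gene symbol (18511) were retained, symbols were updated by gene identifier through RefSeq (18394 rows matched), and the row with the highest mean was used for each gene, which left 18166 genes. No filter on weak signals was applied. Arrays give no counts, so their number limits the precision.

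The groups were compared with limma 3.58.1 in R 4.3.3 (lmFit and eBayes), without a block, with Benjamini-Hochberg adjustment across the whole table. Rows of the members were read from that fit. Single genes were also put to an exact two-sided permutation test, whose smallest p is 0.10. Members, lists, tests and alternatives were chosen with earlier results of these data known. Every measured member is named, as are the pathway genes past the threshold or among the 4 smallest p-values of their list; Dusp6, Etv4 and Etv5 were added after their values were seen. The replicate numbers were not stated to pair the arrays, but after group means were removed, same-numbered arrays correlated across genes at 0.274, 0.292 and 0.445, so they were taken as pairs for the blocked alternative. All 6 arrays differed in their values. The fit was tested on simulated data. Plots and gene tables were made in Python 3.11.15 (pandas 2.3.3, matplotlib 3.10.9), and statmod 1.5.0 served the array weights.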

Additional observations from a re-analysis of the deposited data

How the results depend on the processing

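Over 540 refitted values of the 35 members, under 15 alternatives and 1 more that was chosen after seeing the data (without both arrays numbered 3), 500 kept both direction and side of the threshold, 24 turned direction, 4 lost a call and 12 gained one. Fgf8 kept its call in every refit that tested it. Among genes above the median signal it was not tested, so that 0 members were higher, and the median of the members left was −0.0976. Weak signals therefore limit what can be said of the ligands.

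Lower members numbered 0 with the methods' t-test, 3 with array weights and 3 without both arrays numbered 3, and lower pathway genes numbered 1 with the t-test and 6 without both arrays numbered 3. With 1 array left out at a time, 1 to 4 members were higher (4 without HCDDP array 1, 2 without diabetic array 3) and 0 to 4 were lower (0 without HCDDP array 3, diabetic array 1 or diabetic array 2, 2 without HCDDP array 2, 4 without diabetic array 3). Of the pathway genes 1 to 7 were lower (1 without HCDDP array 2, HCDDP array 3 or diabetic array 2, 7 without diabetic array 3). The members' median ran from 0.00254 to 0.103.

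Over all genes, 168 were higher and 414 lower. The counts were 88 and 108 with the t-test, 299 and 1063 with array weights, 1028 and 870 over all probe rows, and 358 and 1124 without both arrays numbered 3. Above the median signal 49 were higher. With 1 array left out, 112 to 493 were higher and 185 to 1491 lower, both highest without diabetic array 3. With the replicate number as a block, 631 genes were lower, and no call of a member changed.

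Each turn of direction was in a member that was not called. With array weights Fgf2 was at −0.0758, Fgf16 at 0.0872 and Spry2 at −0.135. After quantile normalization Fgf5 was at −0.00545 and Fgf21 at −0.0654, and Fgf21 was at −0.0751 with linear signals. Without both arrays numbered 3, Fgf2 was at −0.0757, Fgf16 at 0.187, Kl at −0.0359 and Spry2 at −0.188. With 1 array left out, the log2 differences ran over ranges that crossed 0, Fgf1 at −0.224 to 8.8e-05, Fgf2 at −0.0631 to 0.137, Fgf5 at −0.135 to 0.28, Fgf7 at −0.185 to 0.435, Fgf16 at −0.221 to 0.0826, Fgf21 at −0.365 to 0.37, Fgfbp1 at −0.177 to 0.622, Kl at −0.129 to 0.266 and Spry2 at −0.166 to 0.1995. The cause of these changes was not tested.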
